A study of Mustela putorius furo with 10 samples.

Results

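The LRRC8 genes encode the subunits of the volume-regulated anion channel, and this is an account of their transcripts in blood mononuclear cells of ferrets kept in the cold. Members were the 5 listed symbols LRRC8A, LRRC8B, LRRC8C, LRRC8D and LRRC8E, matched through the RefSeq gene name of the accession that each array probe carries, and 4 of the 5 had a target sequence on the array and a value among the 26303 genes tested. Of these 26303, 9276 had a symbol, and each of the others was a single accession without one, counted as a gene. Shares and ranks over all genes are taken over this mixture. The family was taken up with its cold and control values in view, so the difference between the groups is given for its members as a description, without a test.

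LRRC8 subunits assemble into hexameric channels of the plasma membrane. LRRC8A is needed in every channel, and the partner subunits B to E set what passes through it. Swelling opens the channel, chloride and small organic osmolytes such as taurine leave, water follows, and the cell returns to its volume. In white blood cells the same channels are known as a route for cyclic dinucleotides, the messengers that activate STING.

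Peripheral blood mononuclear cells (PBMC) were prepared on a Ficoll gradient from heart blood of male ferrets aged 3 months. The control group was held at 22 °C and gave 6 arrays, and the cold group was held at 4 °C for 1 week and gave 4 arrays. The labels state 7 animals per group, and only the cold animals are described as housed singly, so temperature and housing cannot be told apart. Each array carried RNA of 1 ferret in Cy3 (green) and a common pool in Cy5 (red), made of PBMC mixed with RNA of other tissues, and no array had the dyes exchanged. A log2 ratio above 0 therefore means more signal in the ferret's PBMC than in the pool, and dye and sample cannot be told apart in its absolute level.

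The arrays differed most in the pool's channel. Median Cy3 intensity of a spot ran from 210 to 280.5 on control arrays and from 204.5 to 245 on cold arrays. Median Cy5 intensity ran from 44 to 80 on control arrays and from 48 to 151.5 on cold arrays, with the highest value on Cold 1. Cy3 was well above background, the scanner software's call for a spot clearly brighter than its surroundings, at 50.4% to 63.4% of spots in control and 58.0% to 61.1% in cold. No gene passed an adjusted limma p of 0.05 for the log2 ratio, with 2273 genes (8.64%) at an unadjusted p under 0.01 and 6503 (24.7%) at one under 0.05, and no gene passed it by the methods' t-test. With Cy3 alone 739 genes (2.81%) passed, and the median difference over all genes was -0.011 for the ratio and -0.037 for Cy3.

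Detection differed between the subunits. LRRC8A was read by 4 probes to 1 target sequence (XM_004757153.1), LRRC8C by 4 probes to 1 sequence (XM_004752632.1), and LRRC8D by 20 probes to 5 sequences (XM_004752624.1, XM_004752626.1, XM_004752627.1, XM_004752628.1 and XM_004752629.1), which are transcript models of the same gene and no replicates of each other. Every one of these probes had Cy3 well above background on all 10 arrays. LRRC8E had 8 probes to 2 sequences (XM_004771689.1 and XM_004771690.1), and Cy3 was well above background at 0% to 25% of its spots in control and at 4.17% to 16.7% in cold. A single LRRC8E probe passed the filter, which asked for a Cy3 call on 4 arrays or more: it had one on 4 control and 2 cold arrays. No target sequence matched an accession that the annotation gives for LRRC8B, so that subunit has no value here.

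LRRC8A, the subunit that no channel can lack, had a mean ratio in cold that differed from control by less than its standard error, while its Cy3 signal alone was higher in cold. Its log2 ratio in the 6 control arrays was 0.026 at the lowest, 0.12 at the median and 0.29 at the highest. The 4 cold arrays read -0.13, 0.37, 0.71 and 0.10. The controls lay close together and the cold arrays scattered around them, with Cold 2 and Cold 3 above every control and Cold 1 below every control. The control mean was 0.13 ± 0.091 (SD, n = 6), the cold mean 0.26 ± 0.36 (SD, n = 4), and the difference 0.13 ± 0.14 (SE). In Cy3 alone the cold arrays read 11.58, 11.62, 11.87 and 11.45 on the log2 scale and the controls between 11.27 and 11.45, with a difference of 0.26 ± 0.093 (SE). In this channel the groups did not overlap, as in 3.57% of all genes (cold higher), though the lowest cold and the highest control array had the same rounded value. The pool's own LRRC8A signal stood at 8.45 on Cold 1 against 8.12 to 8.18 on the other cold arrays, on the log2 Cy5 scale, and Cold 1 was the array with the negative ratio.

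LRRC8C, a partner subunit known from endothelium and T lymphocytes and from transport of cyclic dinucleotides, was higher in all cold arrays than in any control array. Its log2 ratio in the controls was 0.58 at the lowest, 0.66 at the median and 0.82 at the highest. The cold arrays read 1.47, 1.30, 1.52 and 1.15. The groups were apart by a gap wider than the whole range of the controls. Cold exceeded control by 0.68 ± 0.090 (SE) or 1.60-fold, with SDs of 0.089 over 6 and 0.17 over 4 arrays. Among all genes tested, 3.08% had every cold ratio above every control ratio; LRRC8C was the only member of the 4 to do so, and since it was picked on this contrast nothing is read from that count.

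Both channels were looked at separately for LRRC8C, because the pool held little of its signal. The mean Cy3 intensity of its spots, before any correction, was 1417, 1259, 1280, 1378, 1489 and 1376 on the control arrays. It was 1889, 2777, 2475 and 1700 on the cold arrays. The uncorrected ferret signal was thus also higher on each cold array than on each control array. Quantile normalized Cy3 gave 10.03 to 10.61 in control and 10.76, 10.99, 10.99 and 10.74 in cold on the log2 scale, without overlap, and a smaller difference of 0.43 ± 0.12 (SE) or 1.34-fold. The pool's Cy5 intensity was 47.8 to 161 in control and 60.1 to 351 in cold, over a local background of 28.2 to 36.3 on the 10 arrays. LRRC8C Cy5 was well above background at 12.5%, 0%, 50%, 100%, 100% and 0% of spots on Control 1 to 6 and at 100%, 50%, 100% and 100% on Cold 1 to 4. The ratio of LRRC8C therefore had a denominator near background on part of the control arrays, and the effect of this on the ratio was not tested. Normalized Cy5 differed by 0.081 ± 0.082 (SE) between the groups.

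**Figure D1:**
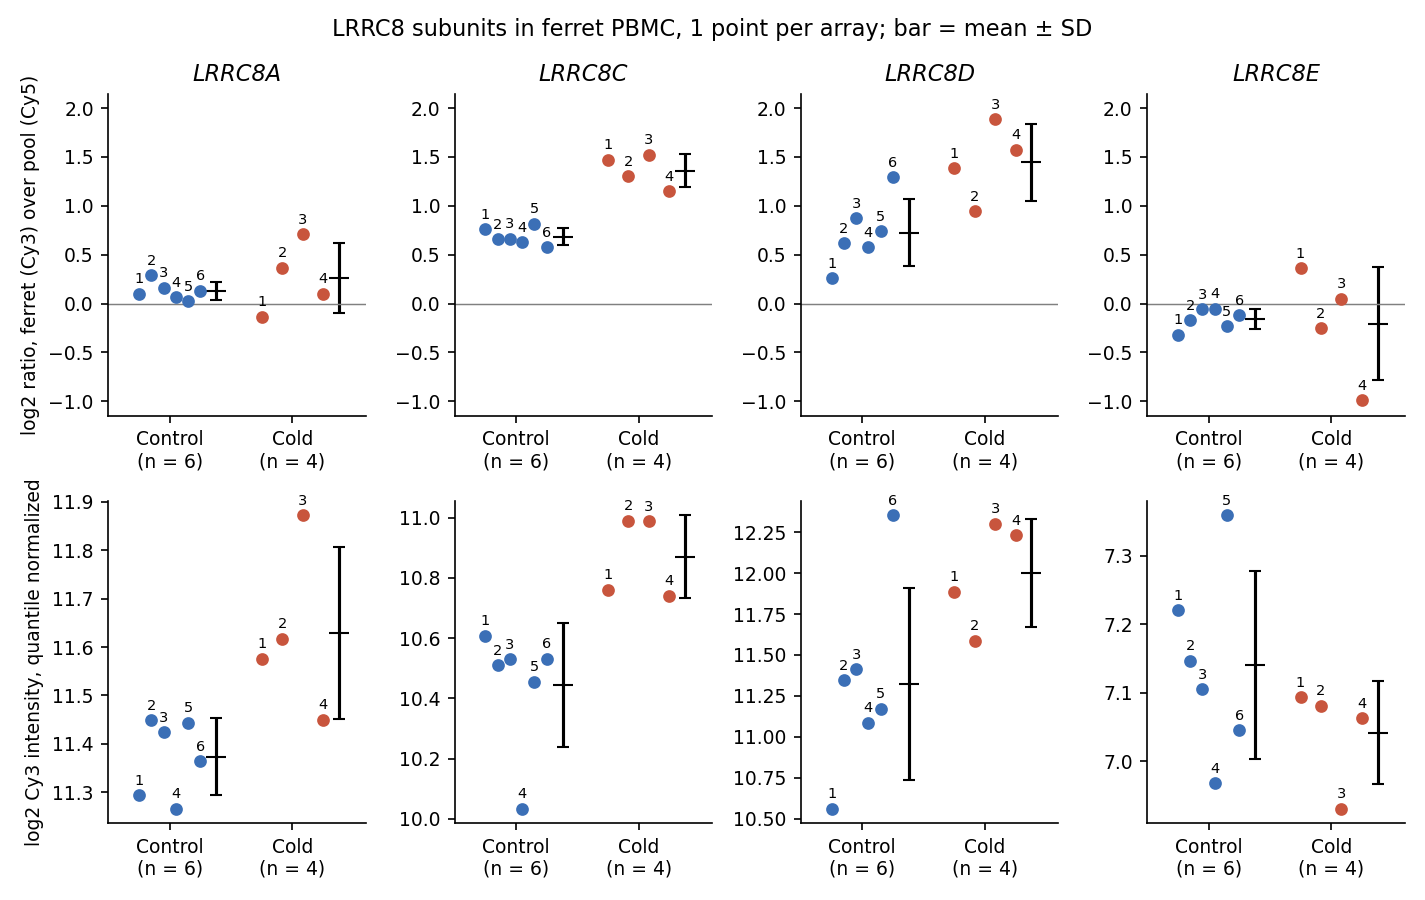
Values of the 4 measured LRRC8 genes on each array, with the array's replicate number: log2 ratio of Cy3 (ferret PBMC) to Cy5 (pool) in the upper row, on a shared axis, and quantile normalized log2 Cy3 in the lower row, where each gene has an axis of its own; bars are mean ± SD of 6 control and 4 cold arrays. The LRRC8C ratios span 0.58 to 0.82 in control and 1.15 to 1.52 in cold, while those of LRRC8D overlap at Control 6 and Cold 2.

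The 4 LRRC8C probes gave differences of the ratio between 0.55 and 0.76. Of these 4 probes 3 had no overlap between the groups, as had 2.35% of all single probes kept (higher in cold). In Cy3 alone their differences ran from 0.25 to 0.53, and 3 of the 4 did not overlap, against 3.57% of single probes. All 4 thus pointed the same way on both scales. Since they share RNA, array and target, they are no independent replicates. They also make up the value of a gene picked on this contrast, so nothing is read from these probe counts.

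LRRC8D, the partner subunit known for letting larger and uncharged organic solutes pass, was on average as much higher in cold as LRRC8C but far more variable. Its log2 ratio on Control 1 to 6 was 0.26, 0.62, 0.88, 0.58, 0.74 and 1.29. On Cold 1 to 4 it was 1.38, 0.95, 1.89 and 1.57. The groups overlapped through Control 6, which stood above Cold 2. The means were 0.73 ± 0.35 (SD, n = 6) and 1.45 ± 0.39 (SD, n = 4), a difference of 0.72 ± 0.21 (SE) or 1.65-fold. These arrays made the only overlap, so leaving out either one separates the groups by construction. The difference was 0.83 without Control 6 and 0.89 without Cold 2. Cy3 alone gave a difference of 0.68 ± 0.28 (SE), with 10.56 to 12.35 in control and 11.59 to 12.30 in cold, and here Control 6 was the highest array of all 10.

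All 5 transcript models and all 20 probes of LRRC8D were higher in the mean of the cold arrays. The differences of the ratio were 0.69 to 0.79 over the 5 target sequences, each with a standard error of 0.20 to 0.23, and 0.48 to 0.98 over the probes, and no probe separated the groups. The pool's normalized Cy5 signal of LRRC8D was itself slightly higher on the cold arrays, at 7.64 to 7.67 against 7.44 to 7.60, a difference of 0.13 ± 0.049 (SE) without overlap. That pattern was found in 0.893% of all genes. This Cy5 was normalized apart from the ratio, and its part in the ratio was not tested. Unlike LRRC8C, LRRC8D had pool signal above background at 50% or more of its spots on every array.

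LRRC8E, a partner subunit mostly known from epithelia, was close to the detection limit. Its log2 ratio in control was -0.32 at the lowest, -0.14 at the median and -0.053 at the highest. The cold arrays read 0.36, -0.25, 0.047 and -0.99. Cold values lay on both sides of the controls, and the difference of -0.050 ± 0.21 (SE) was smaller than its error. In Cy3 alone the difference was -0.099 ± 0.090 (SE), with 6.97 to 7.36 in control and 6.93 to 7.09 in cold. The mean Cy3 intensity of the retained probe was 150 to 194 in control and 137 to 163 in cold over a local background of 47 to 63.8, which leaves little room to see a change. In the pool the probe was well above background on Control 5 and Cold 4 and at 0% of its spots on the other 8 arrays, so most LRRC8E ratios divide by a signal near background; Cold 4 was the array with the ratio of -0.99.

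**Figure D2:**
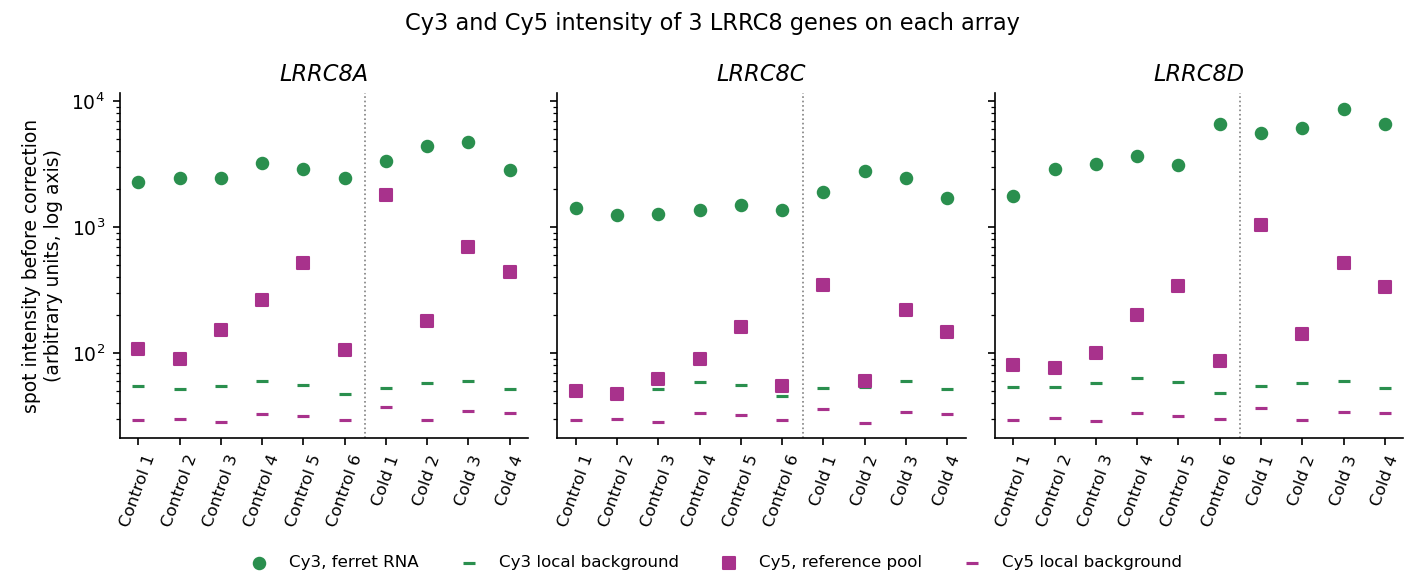
Spot intensity of LRRC8A, LRRC8C and LRRC8D before correction on each array, on a log axis, with Cy3 (ferret RNA) as green circles, Cy5 (pool) as purple squares and the local background of each channel as dashes; the dotted line parts 6 control from 4 cold arrays. Cy3 of LRRC8C is 1259 to 1489 in control and 1700 to 2777 in cold, and Cy5 of all 3 genes is highest on Cold 1, where the median Cy5 of the array is 151.5.

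Measured against the pool in control animals alone, LRRC8C and LRRC8D were among the genes with more signal in PBMC. The mean control ratio of LRRC8C was above that of 96.2% of the genes tested and that of LRRC8D above 96.8%, while LRRC8A lay at 65.8% and LRRC8E at 29.8%. These ranks rest on the ratio of each gene to the pool and not on a level compared between genes. For LRRC8C the pool's signal was well above background at 12.5% of spots or fewer on 3 of the 6 control arrays, and for the LRRC8E probe at 0% on 5 of the 6, so those ranks divide by a signal near background.

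The size of the cold difference depended on how the channels were scaled. With the scanner software's own processed signals LRRC8C was higher by 0.28 ± 0.23 (SE), and LRRC8D by 0.50 ± 0.27. With each array centred on its median in place of the intensity-dependent correction (loess), the values were 0.087 ± 0.28 and 0.024 ± 0.41, against a median over all genes of -0.43, so that both stayed above that median. Without background subtraction they were 0.65 and 0.70. In the deposited value table they were 0.46 and 0.43. The LRRC8C groups overlapped with processed signals, with median centring and in the deposited table. LRRC8C and LRRC8D were above 0 under each of these settings, while LRRC8A was below 0 with processed signals (-0.014), with median centring (-0.67) and in the deposited table (-0.23), and LRRC8E above 0 in the same settings (0.13, 0.10 and 0.55).

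**Figure D3:**
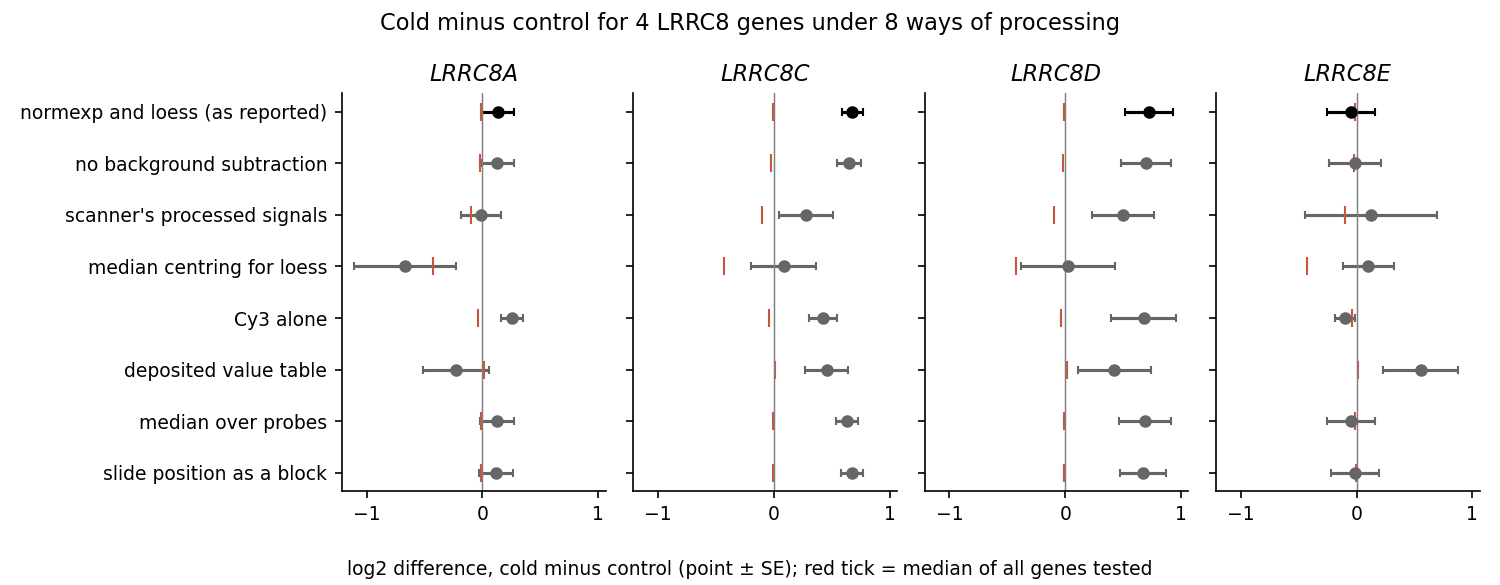
Cold minus control difference, as a point with its standard error on the log2 scale, for each LRRC8 gene under 8 ways of processing the 10 arrays; the red tick is the median difference of all genes tested under the same processing. LRRC8C ranges from 0.087 to 0.68 and LRRC8D from 0.024 to 0.72, with the lowest values under median centring, where the median gene is at -0.43.

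Arrays sat at 1 of 2 positions on their slides. At position 1 (4 control and 2 cold arrays) the LRRC8C ratio differed by 0.73, and at position 2 (2 and 2 arrays) by 0.59. For LRRC8D the differences were 0.48 and 0.92. With position as a block in the fit they were 0.67 and 0.67. The direction was the same at both positions for these genes, which for LRRC8C had to be so because its groups did not overlap. For LRRC8A (-0.029 and 0.31) and LRRC8E (0.22 and -0.33) it was not.

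PBMC are a mixture, and a lower transcript level can come from fewer cells of a type or from less RNA per cell, which cannot be told apart here. Marker genes of several blood cells moved with the groups. Of 10 neutrophil markers measured, 9 were higher in cold, with a median difference of 0.76, and the mean ratio of the list was 0.32 to 0.91 in control and 1.24 to 1.52 in cold. LCN2 (lipocalin of neutrophil granules) was higher by 0.67 ± 0.11 (SE) and MPO (myeloperoxidase) by 1.41 ± 0.26, each with adjusted p = 0.0576 by limma. All 8 platelet markers were higher, with a median of 0.87 and list means of 0.011 to 1.23 against 1.00 to 1.74; F13A1 (coagulation factor XIII) differed by 1.23 ± 0.20 and GP9 (a von Willebrand receptor subunit) by 0.87 ± 0.19. Of 10 monocyte markers 8 were higher, with a median of 0.44, VCAN by 1.29 ± 0.32 and CD14 by 0.66 ± 0.19. In Cy3 alone CX3CR1, the fractalkine receptor of monocytes, fell by 0.58 ± 0.13 (adjusted p = 0.0466 by limma), while its ratio differed by -0.046 ± 0.17; of the monocyte, neutrophil and platelet lists 1, 3 and 1 markers passed the adjusted threshold in Cy3, the other 4 being higher in cold, and none did in the ratio. Of 13 T cell markers 12 were lower, with a median of -0.39, LCK by -0.75 ± 0.18 and CD4 by -0.38 ± 0.13. The direction of the median turned only under median centring for neutrophils (-0.041) and monocytes (-0.50), where the median of all genes was -0.43, and those of the platelet and T cell lists kept their sign under all 5 other scalings or value sources.

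The remaining lists moved less in the ratio. The median of 9 B cell markers was -0.064 (EBF1 -1.06 ± 0.30, CD79B -0.43 ± 0.29) and that of 7 cytotoxic markers 0.057 (GZMK 0.17 ± 0.10, NKG7 0.095 ± 0.098). That of 6 erythroid markers was 0.025, with 3 higher and 3 lower. The receptor EPOR differed by 0.34 ± 0.10, the transcription factor GATA1 by 0.61 ± 0.19 and the membrane skeleton gene SPTB by 0.14 ± 0.17. ALAS2 of haem synthesis differed by -1.12 ± 0.38, and the membrane genes SLC4A1 and EPB42 by -0.35 ± 0.15 and -0.095 ± 0.088. In Cy3 alone EPOR, GATA1 and SPTB stood at 0.32, 0.72 and 0.65, and ALAS2, SLC4A1 and EPB42 at -2.09, -1.37 and -0.62. The medians of the B cell, cytotoxic and erythroid lists in Cy3 alone were -0.56, -0.059 and -0.15. Markers on the array that failed the detection filter (a Cy3 call on 4 arrays or more) were PAX5 for B cells, ALPL and FPR2 for neutrophils, MMRN1 for platelets, and KLF1 and TSPO2 for the erythroid list, while the other listed markers that the array carried passed it.

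The arrays of 1 group also differed among themselves in their cell markers, and the subunits were set against these. Over the 6 control arrays the LRRC8D ratio followed the mean ratio of the platelet list with Pearson r = 0.96 (two-sided exact permutation p = 0.0125) and Spearman rho = 0.94 (exact permutation p = 0.0167). Adjusted over the 56 relations computed, between 4 genes and 7 marker lists on 2 scales, these p-values were 0.218 and 0.311, so the relation did not pass the correction. With 720 orders of 6 arrays the smallest possible p is 0.00139 for r and 0.00278 for rho, which a single relation among 56 would carry to 0.0778 and 0.156, so no single relation could have passed at this size. Without the 2 arrays farthest from the median of the platelet list, r was 0.70. After removing group means, r over all 10 arrays was 0.94. In Cy3 alone r over the controls was also 0.96 (exact permutation p = 0.0181, adjusted 0.218), with rho = 0.83 (exact p = 0.0583, adjusted 0.544), but without the 2 farthest arrays, Control 1 and Control 6, it was 0.14, so on that scale the relation over the controls rested on that pair. With group means removed it was 0.96 over all 10 arrays. Control 1 had the lowest platelet list (0.011) and the lowest LRRC8D (0.26), and Control 6 the highest platelet list (1.23) and LRRC8D (1.29) of the controls.

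In Cy3 alone LRRC8C followed the neutrophil list over the 6 controls with r = 0.99 (exact permutation p = 0.00972, adjusted 0.218) and rho = 0.94 (exact p = 0.0167, adjusted 0.311). Control 4 was lowest in both. Without Control 4 r was 0.82, and without the 2 farthest arrays, Control 4 and Control 1, it was 0.18, so the relation rested on that pair of arrays. With group means removed r over all 10 arrays was 0.85, and in the ratio over the controls the same relation had r = 0.25 (exact permutation p = 0.65). LRRC8A in Cy3 followed the monocyte list with r = 0.96 (exact permutation p = 0.00833, adjusted 0.218) and rho = 0.77 (exact p = 0.103, adjusted 0.719), with r = 0.71 without the 2 farthest arrays and 0.96 over all 10 arrays with group means removed. In the ratio the controls had r = -0.047 (exact permutation p = 0.935), and r with group means removed was 0.60. LRRC8E and the T cell list had r = -0.88 in the ratio (exact permutation p = 0.0194, adjusted 0.218) but 0.45 in Cy3, with LRRC8E near background. None of the 56 relations passed the correction, and the part of these cells in the differences between cold and control was not tested.

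**Figure D4:**
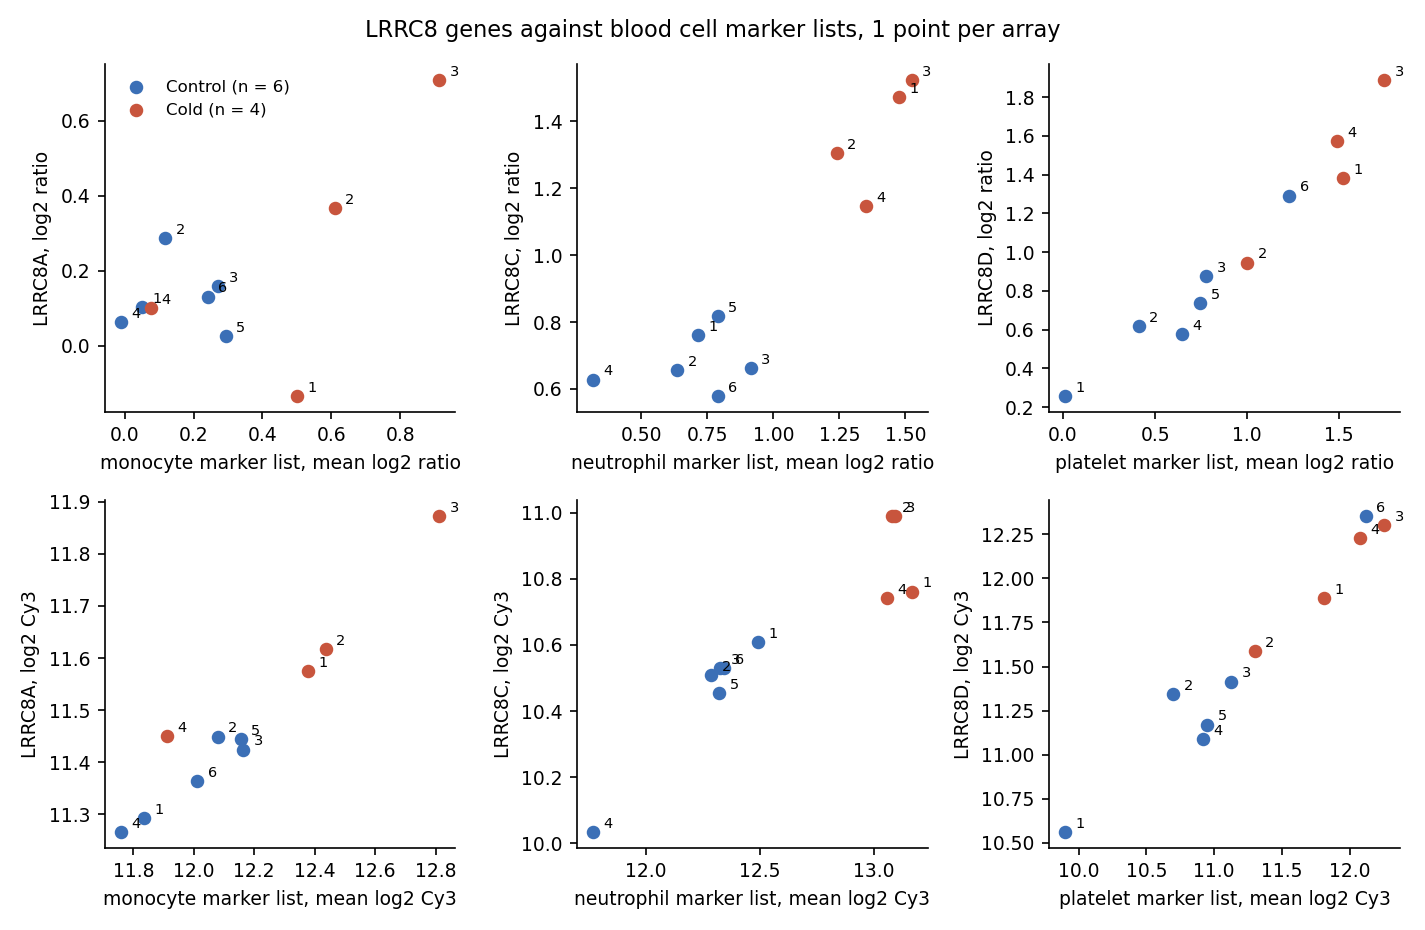
LRRC8A, LRRC8C and LRRC8D against the mean of the monocyte, neutrophil and platelet marker lists, 1 point per array with its replicate number, as log2 ratio in the upper row and log2 Cy3 in the lower row; blue is control (n = 6) and red is cold (n = 4). LRRC8D runs with the platelet list over both groups, from 0.26 on Control 1 to 1.89 on Cold 3 in the ratio, and Control 4 lies below all other arrays for LRRC8C and the neutrophil list in Cy3.

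The genes whose ratios were most like those of LRRC8C over the 10 arrays were SQOR (r = 0.97), LCN2 (0.97), IQSEC2 (0.96), E2F3 (0.95), WDR73 (0.95), CCDC93 (0.95), CKAP4 (0.95), TBXAS1 (0.95), GLIPR2 (0.95) and SEC24D (0.94). SQOR oxidises sulfide in mitochondria, E2F3 is a transcription factor of the cell cycle, TBXAS1 makes thromboxane and SEC24D belongs to the coat of vesicles that leave the endoplasmic reticulum. Such values contain the difference between the groups. With group means removed, the same 10 genes had r between 0.50 for WDR73 and 0.91 for SQOR, and the highest were LOC101672513 (0.95), LOC101693329 (0.94), the histone deacetylase HDAC8 (0.93), TMEM260 (0.93) and LOC106003383 (0.92). In Cy3 alone these last 5 had r between 0.17 and 0.64 with LRRC8C.

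The genes most like LRRC8D, looked up after its values were seen, were PRKAR1B (r = 0.99), TREML1 (0.98), ADIPOR1 (0.97), ACER2 (0.97) and ZDHHC4 (0.97), and with group means removed they still had r between 0.93 and 0.98. PRKAR1B is a regulatory subunit of protein kinase A, and TREML1 is a receptor stored in platelet granules that was not on the platelet list. LRRC8C and LRRC8D themselves had r = 0.68 over 10 arrays and -0.057 with group means removed. LRRC8A had r = 0.33 with LRRC8C and 0.37 with LRRC8D, and 0.17 and 0.23 with group means removed. In Cy3 alone LRRC8A had r = 0.80 with LRRC8C and 0.56 with LRRC8D, and 0.52 and 0.23 with group means removed. All these correlations share arrays and the pool, and carry no test.

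LRRC8B, LRRC8C and LRRC8D follow each other in the RefSeq annotation, with 0 protein-coding genes between them, so the genes beside them were examined. Of the 10 nearest measured neighbours, 5 on each side, 2 were higher and 8 lower in cold, with a median difference of -0.19, and in Cy3 alone 5 of the 10 were higher, with a median of -0.0067. In the ratio 0 of the 10 had an unadjusted limma p under 0.01, beside 8.64% of all genes, so nothing is read from this count. The lowest p-values were those of TGFBR3, a co-receptor for transforming growth factor beta, with a difference of -1.08 ± 0.44 (SE; adjusted p = 0.166 by limma), and ZNF644, a zinc finger gene, with -0.36 ± 0.16 (adjusted p = 0.189 by limma). In Cy3 alone these were -0.14 ± 0.093 and 0.035 ± 0.23. ZNF326, next to LRRC8D, differed by -0.022 ± 0.091 and CDC7 by -0.11 ± 0.088. BTBD8 differed by -0.18 ± 0.10, GTF2B by 0.11 ± 0.076 and KYAT3 by -0.29 ± 0.24. The unnamed LOC101671726, nearest to LRRC8B, differed by -0.28 ± 0.21, LOC101672598 by -0.19 ± 0.28 and LOC101673948 by 0.35 ± 0.25.

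Other genes of cell volume regulation were channels, cotransporters and their kinases, of which 25 of 52 listed were measured. Of these 18 were higher and 7 lower in cold, with a median difference of 0.12 against -0.011 for all genes; it was -0.087 with processed signals and -0.38 with median centring, where all genes had medians of -0.099 and -0.43. The number of genes above 0 also moved with the scaling, to 14 of 25 in Cy3 alone, 11 with processed signals and 5 with median centring. By the unadjusted limma p under 0.01, 2 were higher and 1 lower, that is 3 of 25 beside 8.64% of all genes, and 0 passed the adjusted threshold. AQP9, an aquaglyceroporin of liver and leukocytes, had ratios of 0.60 in control and 1.55 in cold, a difference of 0.95 ± 0.25 (SE; adjusted p = 0.0843 by limma). TTYH3, a tweety-family membrane protein studied as an anion channel, differed by 0.73 ± 0.22 (adjusted p = 0.103 by limma), and in Cy3 alone it rose by 0.89 ± 0.20 (adjusted p = 0.0458 by limma). WNK3, a kinase that senses chloride and controls cation-chloride cotransport, differed by -0.30 ± 0.091 (adjusted p = 0.104 by limma), and its sign turned in the deposited table (0.29).

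**Figure D5:**
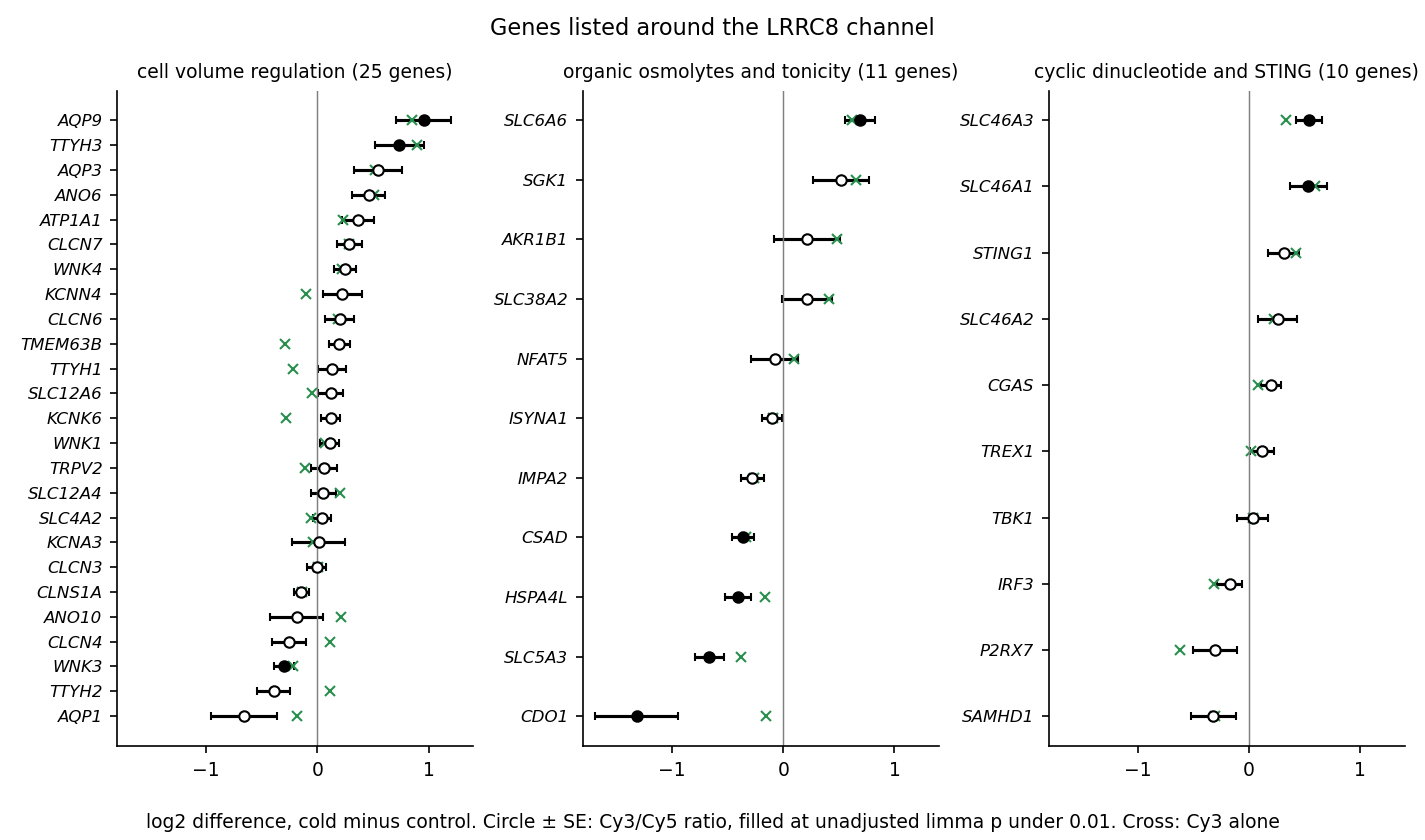
Cold minus control difference of each measured gene on 3 lists around the LRRC8 channel, on the log2 scale; circles with their standard error are the Cy3 to Cy5 ratio, filled where the unadjusted limma p was under 0.01, and crosses are Cy3 alone, over 6 control and 4 cold arrays. AQP9 (0.95), SLC6A6 (0.69) and SLC46A3 (0.54) stand at the top of their lists and CDO1 (-1.32) at the bottom, with its cross at -0.16.

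Genes of the osmolytes that pass LRRC8 channels split by direction. Of 11 measured, 4 were higher and 7 lower, with a median of -0.097, and 5 of the 11 had an unadjusted limma p under 0.01, beside 8.64% of all genes. That count was 2 in Cy3 alone and in the deposited table, and 2 to 6 on leaving out 1 array. The taurine carrier SLC6A6 had ratios of 0.62 in control and 1.31 in cold without overlap, a difference of 0.69 ± 0.13 (SE; adjusted p = 0.0637 by limma). In Cy3 alone SLC6A6 rose by 0.62 ± 0.12 (adjusted p = 0.0375 by limma), and with median centring it stood at -0.054, above the median gene at -0.43. The myo-inositol carrier SLC5A3 differed by -0.67 ± 0.13 (adjusted p = 0.0637 by limma), and in Cy3 alone by only -0.38 ± 0.18 (adjusted p = 0.229 by limma). The enzymes that make taurine from cysteine were both lower in the ratio, CDO1 by -1.32 ± 0.37 (adjusted p = 0.0934 by limma) and CSAD by -0.36 ± 0.10 (adjusted p = 0.093 by limma). CSAD is a gene that the study had singled out on these arrays, so it is no independent observation. In Cy3 alone CDO1 differed by -0.16 ± 0.11 and CSAD by -0.34 ± 0.096. HSPA4L, a chaperone induced by hypertonic stress, differed by -0.40 ± 0.12 in the ratio (adjusted p = 0.0996 by limma) and by -0.16 ± 0.18 in Cy3.

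Of the cyclic dinucleotide and STING list 10 of 16 genes were measured, 7 higher and 3 lower, with a median of 0.16, against -0.011 for all genes; with median centring it was -0.35, where the median of all genes was -0.43. By the unadjusted limma p under 0.01, 2 of the 10 were called, beside 8.64% of all genes. SLC46A3 differed by 0.54 ± 0.12 (SE; adjusted p = 0.0705 by limma) and SLC46A1, the proton-coupled folate carrier, by 0.53 ± 0.17 (adjusted p = 0.109 by limma), both from the carrier family that also transports cyclic dinucleotides. Their ratios had no overlap between the groups, as in 3.08% of all genes. In Cy3 alone SLC46A3 was smaller, at 0.33 ± 0.13 with overlapping groups, and SLC46A1 stood at 0.59 ± 0.19 without overlap. With median centring SLC46A3 and SLC46A1 stood at -0.11 and -0.37, above the median gene. STING1 itself differed by 0.31 ± 0.14 and the synthase CGAS by 0.20 ± 0.090, both named here after their values were seen, and neither reached an unadjusted limma p of 0.01.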

How the data were processed

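The authors scanned 10 custom 2-colour Agilent arrays and extracted spot intensities with Feature Extraction 10.7.3.1, per the file headers; the deposited files hold median intensity and local background per channel, and flags. Here the median signal stood in for the mean, which was not in the files used. Spots were background corrected by normexp (offset 50), control spots dropped, and the ratio Cy3/Cy5 normalized within arrays by loess (span 0.3, 4 iterations) with limma 3.58.1 in R 4.3.3. Cy3 or Cy5 alone was quantile normalized between arrays. Outlier spots were dropped, spots averaged per probe and probes per gene. Probes entered if, on 4 arrays or more, the scanner software called Cy3 well above background for a share of 0.5 or more of the spots. Of 45328 target sequences 21104 were named, as 12918 genes, through RefSeq (ASM1176430v1.1), whose coordinates served only to order the genes beside LRRC8B, LRRC8C and LRRC8D. Each ratio compares 6 control with 4 cold arrays by limma's moderated test with Benjamini-Hochberg adjustment over all 26303 genes. The fit was tried on simulated data with each gene drawn independently, which does not cover genes that vary together. Arrays give no counts, so their number limits the precision.

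The authors' deposited table of log2 values, matched to the scanner intensities, is log2 Cy3 minus log2 Cy5 without background subtraction, plus an unknown constant per array and per sequence (r = 0.999 after centring both). Its medians were 7.93, 7.91, 8.05, 8.08, 8.34 and 7.86 on Control 1 to 6 and 8.78, 7.92, 8.39 and 8.12 on Cold 1 to 4; it was used as an alternative, and how it was normalised is not given in the sources used here. The methods' t-test, other scalings, filters and summaries, blocks and leaving out each array were further alternatives. The members, the pathway and the marker lists were chosen with earlier results of these data known. Genes named were the 5 members, the 10 genes most like LRRC8C and the 5 most like it with group means removed, list genes with an unadjusted p under 0.01, the 10 measured neighbours and the 2 marker genes of lowest p per list; the genes most like LRRC8D, STING1, CGAS CX3CR1 and the other 4 erythroid markers were added after their values were seen.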

Additional observations from a re-analysis of the deposited data

Results flagged for a closer look

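Among 46 sets of arrays examined, each a gene or marker list in 1 group, 3 held an array that stood apart by Dixon's test at 95%, a rate near the 1 in 20 that chance alone gives. LRRC8A in the pool's channel was 8.45 on the log2 Cy5 scale on Cold 1, with the other cold arrays between 8.12 and 8.18; Cold 1 also had the highest median Cy5 intensity, 151.5. LRRC8C in Cy3 alone was 10.03 on Control 4, with the other controls between 10.45 and 10.61; the LRRC8C ratio of that array, 0.63, lay within the range of the controls. The mean log2 ratio of the T cell list was -0.80 on Cold 3, with the other cold arrays between -0.14 and -0.041, and Cold 3 also had the highest LRRC8A (0.71), LRRC8C (1.52) and LRRC8D (1.89) ratios of all 10 arrays.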

How the results depend on the processing

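The difference was above 0 under all 20 alternatives tried for LRRC8C and LRRC8D, and under 16 of 20 for LRRC8A. For LRRC8E it was above 0 under 4 of 19, and LRRC8B gave no value under any. The alternatives reuse the same arrays, 10 of them leaving out 1 array, so these counts are no independent checks. With median centring the LRRC8C and LRRC8D differences, 0.087 ± 0.28 and 0.024 ± 0.41 (SE), were smaller than their errors. The scanner's processed signals put LRRC8C at 0.28, with 1 gene of cell volume regulation and 3 osmolyte genes at an unadjusted p under 0.01, against 3 and 5. Median centring put LRRC8A at -0.67, LRRC8C at 0.087 and LRRC8D at 0.024, with 0, 3 and 0 genes on the volume, osmolyte and STING lists, and moved the median of all genes to -0.43. Cy3 alone put LRRC8C at 0.43, with 739 genes past the adjusted threshold and 2 osmolyte and 1 STING list gene. The deposited table put LRRC8A at -0.23, LRRC8C at 0.46 and LRRC8E at 0.55, with 1, 2 and 0 genes on the 3 lists. A stricter filter (well above background on all 10 arrays) gave 115 genes past the adjusted threshold and 3 osmolyte genes. Slide position as a block gave 5 genes, with 1 volume and 1 STING list gene. The methods' t-test called 1728 genes at its unadjusted threshold and 0 after adjustment, with 3 osmolyte genes and 1 STING list gene. The cause of these differences was not tested. The genes at an unadjusted p under 0.01 split into 1371 higher and 902 lower in the ratio as reported (60.3% higher), into 640 and 865 with processed signals (42.5%), 214 and 948 with median centring (18.4%), and 505 and 588 in the deposited table (46.2%).

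Leaving out 1 array at a time gave LRRC8A -0.017 to 0.26, LRRC8C 0.62 to 0.75, LRRC8D 0.57 to 0.89 and LRRC8E -0.24 to 0.21. The LRRC8C groups had no overlap to begin with, and leaving out an array cannot create one. LRRC8A was below 0 without Cold 3, and LRRC8E above 0 without Cold 4. Genes past the adjusted threshold ranged from 0 to 1267, with 1267 without Cold 2, 633 without Control 5 and 12 without Cold 1. Counts at an unadjusted p under 0.01 were 1 to 5 for the volume list (5 without Cold 2), 2 to 6 for the osmolyte list, 1 to 3 for the STING list and 0 to 1 for the neighbours.

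Replicate numbers 1 to 4 showed no clear pairing of the groups, though so few arrays cannot exclude one. The deviations of same-numbered arrays had correlations of -0.30, 0.54, 0.096 and -0.19, and 3 of 8 arrays were most alike to the array of their own number. With the replicate number as a block the differences were 0.11 for LRRC8A, 0.68 for LRRC8C, 0.86 for LRRC8D and -0.058 for LRRC8E, 0 genes passed the adjusted threshold, and 0 STING list genes and 1 neighbour had an unadjusted p under 0.01. Signal was near background in the pool for LRRC8C on part of the arrays and in both channels for LRRC8E.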
